A study of Homo sapiens with 26 samples.

Results

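The non-clustered protocadherins are single-gene members of the cadherin superfamily, and 9 of them, PCDH1, PCDH7, PCDH8, PCDH9, PCDH10, PCDH17, PCDH18, PCDH19 and PCDH20, were followed here among the 26485 genes of the deposited tables. They were chosen by name, and PCDH19 was taken in because of its measured fall in xenografts labelled RUNX1T1 knock-out. The xenograft values that chose it are therefore given as a description. The RNA came from KELLY, a MYCN-amplified human neuroblastoma cell line. The cells carried a lentiviral vector induced by doxycycline, empty in the EV line and coding for a hairpin against the transcriptional co-repressor RUNX1T1 in the sh4 and shAMB lines. Each of the 3 lines was grown for 72 h with doxycycline (DOX) or with its solvent control DMSO, in 3 libraries per group, so that all 18 culture libraries share the KELLY background and an integrated vector. A further 8 libraries came from subcutaneous KELLY tumors in female NOD SCID gamma mice, which lack lymphocytes but keep other host cells. Of these, 4 were labelled control, with control food, and 4 were labelled knock-out, with doxycycline food. The study describes hairpin-carrying cells in these mice, not a deletion, and places the first of its hairpins, built on an Ambion siRNA sequence, in the sequenced tumors. The labels of the tumors name no hairpin. Nothing in the labels says whether replicates were separate cultures, so the p-values measure the spread between these libraries, which may be technical. The column headings Neg and Pos were taken to mean DMSO and doxycycline from the words alone, and the direction of every culture comparison rests on that reading.

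Protocadherins are transmembrane proteins whose extracellular cadherin repeats bind the same protein on a neighboring cell, generally more weakly than classical cadherins do. The members differ mainly in their intracellular tails. PCDH1, PCDH7 and PCDH9 form the delta-1 group, whose tail carries a motif that binds protein phosphatase 1, and PCDH8, PCDH10, PCDH17, PCDH18 and PCDH19 form the delta-2 group, several of which recruit the WAVE complex, an activator of branched actin assembly. PCDH20 stands apart from both. In the nervous system they act in cell sorting, axon growth and synapse formation, and PCDH19 is the gene of an X-linked epilepsy.

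The questions were how these genes differed with each hairpin, whether the empty vector showed the same difference, and which of them differed in the tumors. RUNX1T1 itself was examined first. Its mean level in CPM (expected counts relative to the TMM-adjusted library total) was 34.3 ± 0.898 (SD, n = 3) with DMSO and 31.8 ± 1.94 with DOX in the sh4 line, 40.9 ± 1.04 and 42.5 ± 1.41 in the shAMB line, and 41.9 ± 2.41 and 37.6 ± 1.05 in the EV line. In the xenografts it was 35.5 ± 5.51 (SD, n = 4) in controls and 30.2 ± 5.19 in those labelled knock-out. None of these 4 differences passed the test (for sh4, shAMB, EV and the xenografts in this order, log2 fold changes were -0.11, 0.06, -0.16 and -0.23, and edgeR adjusted p-values 0.117, 0.378, 0.672 and 0.229). Other settings called RUNX1T1 lower with sh4, namely once trends of GC content and gene length were removed (-0.22, adjusted p = 0.000470) and without sh4 DOX replicate 2 (-0.16, adjusted p = 0.0434), within 0.000470 to 0.309 over 12 alternatives. It was also called lower in the xenografts with these trends removed (-0.32, adjusted p = 0.0213, within 0.0213 to 0.495 over 13). No alternative called RUNX1T1 with shAMB or EV. These values are of messenger RNA alone, so they do not show whether the protein was depleted. The study reports lower RUNX1T1 levels in KELLY cells given doxycycline with both of its hairpins. By immunostaining it also reports loss of RUNX1T1 in KELLY tumors after knock-down. Lines and tumors are named by their labels throughout. Total expected counts were 35115915 to 54736733 per culture library and 47346063 to 62378060 per xenograft library. All 9 sympathetic neuroblastoma markers examined, among them HAND2, GATA3 and MYCN, were found in every group. In bulk RNA, fewer cells of a type and less RNA per cell cannot be told apart.

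The genes lie on 4 chromosomes (GRCh38, GENCODE annotation). PCDH19 is at chrX:100291644-100410273 on the minus strand and PCDH18 at chr4:137518918-137532494 on the minus strand. PCDH7 (chr4:30720369-31146805) and PCDH10 (chr4:133149294-133208606) lie on the plus strand of the same chromosome as PCDH18. PCDH1 is at chr5:141853090-141879246 on the minus strand. The other 4 are on chromosome 13, namely PCDH8 at 52842889 to 52848641, PCDH20 at 61409685 to 61415849 and PCDH9 at 66302834 to 67230445, all on the minus strand, and PCDH17 at 57631744 to 57729311 on the plus strand. Genes transcribed over the other strand cover 12.4% of the exon bases of PCDH7, 7.79% of those of PCDH17 and 0.465% of those of PCDH9, and since the strand setting of the counting is not stated, reads of the partners cannot be told apart. A same-strand gene model covers 91.3% of the exon bases of PCDH20, so its level is uncertain.

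The promoter windows of 4 members are shown because these genes carry the main contrasts in the results, PCDH19 and PCDH18 lower with shAMB, PCDH9 lower with both hairpins and PCDH7 moving opposite ways with the 2 hairpins. RefSeq (GRCh38.p14) gave a window for 7 of the 9, and each holds the 250 bases before 1 annotated start. Capitals mark CCAAT (or ATTGG on the other strand) and GGGCGG (or CCGCCC), and the strand is that of the gene. The windows are chrX:100410274-100410523 for PCDH19, chr4:137532495-137532744 for PCDH18, chr13:67230337-67230586 for PCDH9 and chr4:30720119-30720368 for PCDH7.
PCDH19: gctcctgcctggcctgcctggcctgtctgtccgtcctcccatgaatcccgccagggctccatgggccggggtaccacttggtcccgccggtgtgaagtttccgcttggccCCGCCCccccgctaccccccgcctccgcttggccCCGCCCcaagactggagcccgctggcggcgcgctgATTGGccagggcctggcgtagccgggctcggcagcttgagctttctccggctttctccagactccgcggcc
PCDH18: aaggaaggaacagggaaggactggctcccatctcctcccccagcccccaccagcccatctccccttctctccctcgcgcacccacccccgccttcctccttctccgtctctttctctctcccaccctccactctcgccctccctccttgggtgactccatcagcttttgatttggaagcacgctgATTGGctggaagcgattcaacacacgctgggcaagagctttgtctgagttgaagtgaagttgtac
PCDH9: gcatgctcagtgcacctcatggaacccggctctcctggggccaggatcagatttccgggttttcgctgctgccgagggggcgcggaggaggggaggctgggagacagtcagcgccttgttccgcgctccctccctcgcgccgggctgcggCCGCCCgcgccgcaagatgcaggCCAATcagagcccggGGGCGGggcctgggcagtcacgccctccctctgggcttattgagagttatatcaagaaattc
PCDH7: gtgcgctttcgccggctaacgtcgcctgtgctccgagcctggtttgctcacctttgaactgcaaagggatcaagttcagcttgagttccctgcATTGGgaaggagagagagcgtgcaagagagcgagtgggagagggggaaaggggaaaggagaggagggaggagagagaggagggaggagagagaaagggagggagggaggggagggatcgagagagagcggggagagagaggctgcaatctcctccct

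The PCDH19 window had 72.0% G and C with 21 CpG pairs, against 66.8% and 20 for PCDH9, 59.6% and 10 for PCDH7 and 58.4% and 8 for PCDH18. The median over all 35116 promoters was 58.0%. Both strands of each window were searched. No member window held CACGTG, the E-box of MYC and MAX, CATCTG, an E-box form bound by HAND2 with its partners, or TGTGGT, the RUNX core, which were in 6.34%, 12.2% and 10.98% of all promoters. CCAAT was in 6 of the 7 windows and in 32.0% of all promoters. In PCDH18 and PCDH19 it lay on the other strand, beginning 65 and 71 bases before the start, and in PCDH9 on the gene's own strand at 77. GGGCGG was in 3 of the 7 (PCDH1, PCDH9 and PCDH19) against 42.6% of all promoters, and TATAAA was in PCDH8 alone of the 7, 30 bases before the start, against 10.7%. No motif overlapped another in these windows. The last 3 of these motifs were picked after the windows had been read, and a match is only a match of letters.

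Levels were compared between members as CPM per kilobase of the gene length given in the tables. In EV cells with DMSO the order was PCDH1 at 9.88 ± 2.36 (SD, n = 3), PCDH18 at 6.23 ± 0.490, PCDH19 at 4.25 ± 0.115, PCDH7 at 4.07 ± 0.153, PCDH17 at 1.97 ± 0.105, PCDH9 at 1.48 ± 0.109, PCDH10 at 0.607 ± 0.0569, PCDH20 at 0.217 ± 0.0699 and PCDH8 at 0.111 ± 0.0234 CPM per kilobase. The libraries of PCDH19 and PCDH7 overlapped in that order and no other neighbors did. PCDH1 was highest in each of the 8 groups, though it overlapped with PCDH18 in sh4 cells with DOX and in shAMB cells with DMSO. PCDH8 and PCDH20 were the 2 lowest in every culture group. The order of the others depended on the group, as with shAMB and DOX, where PCDH7 at 5.83 ± 0.0955 stood above PCDH18 at 3.35 ± 0.0776 and PCDH19 at 1.53 ± 0.105 CPM per kilobase, with no overlap among these 3. PCDH8 had 13 to 56 expected counts and PCDH20 17 to 75 per culture library, so both were measured less precisely than PCDH19, with 674 to 2198.

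**Figure D1:**
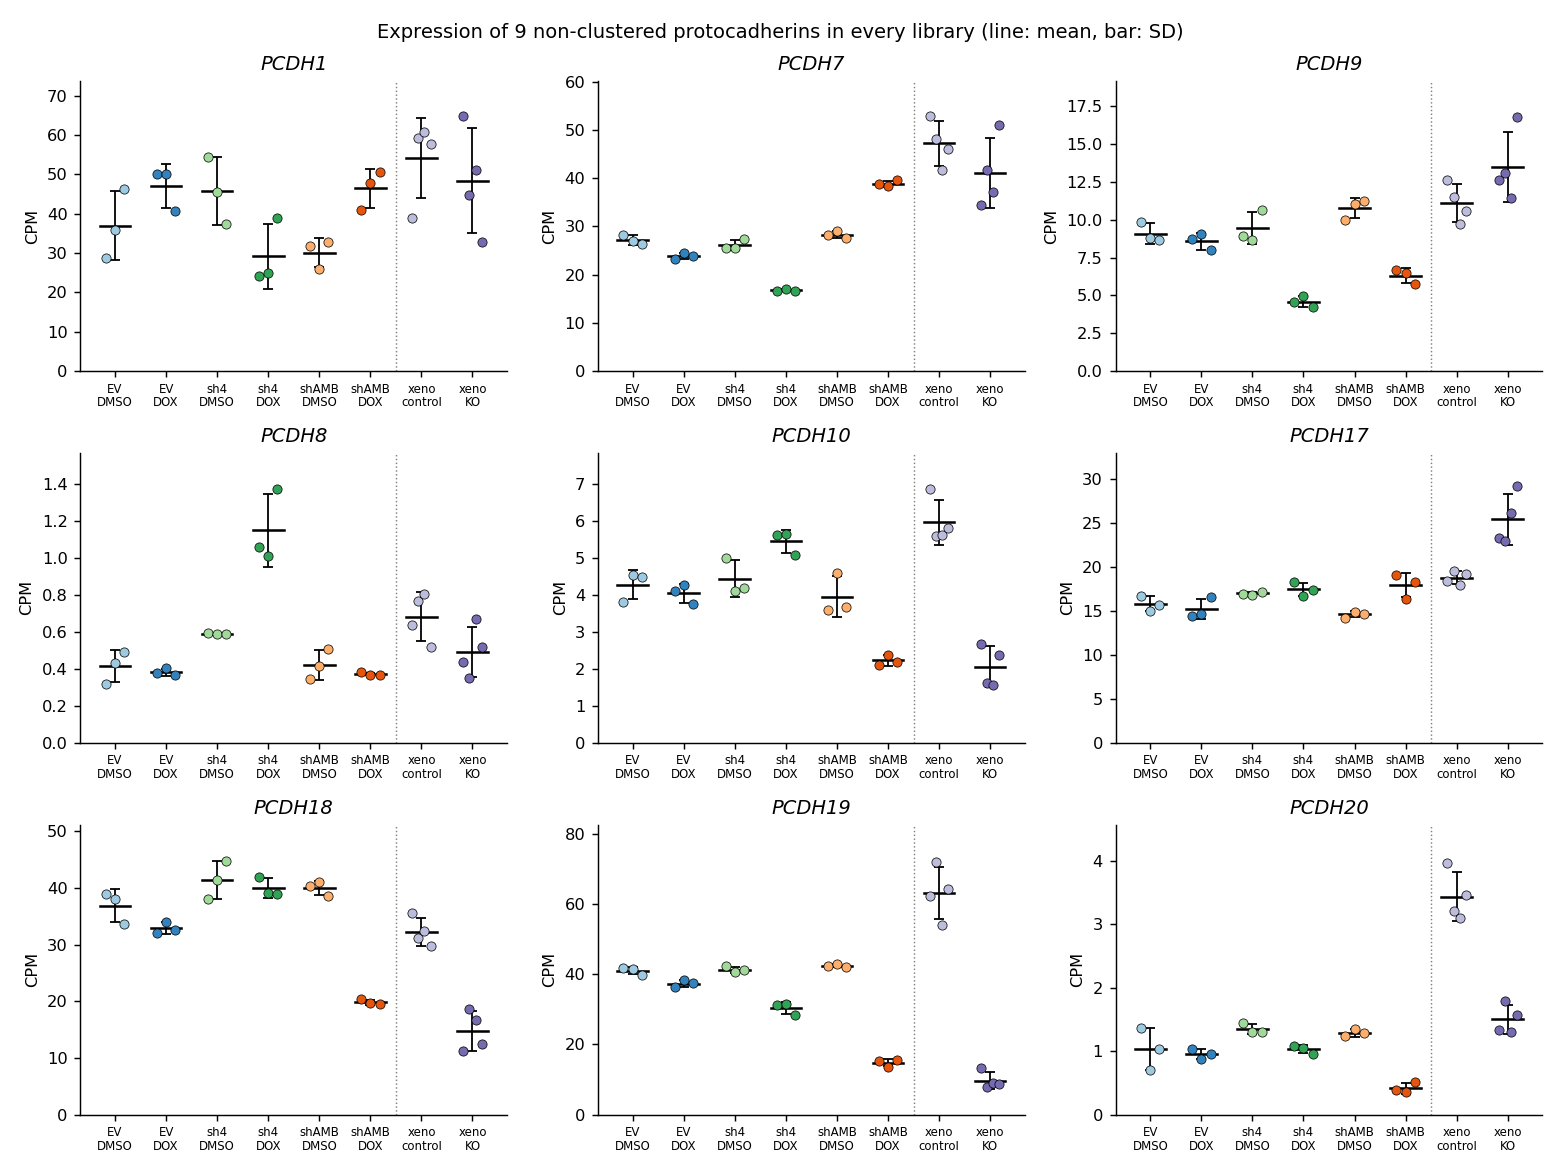
CPM (vertical axes, linear from 0) of the 9 members in each of 26 libraries by group, with the mean as a line and the SD as a bar; culture and xenograft libraries, parted by a dotted line, were scaled separately. PCDH19 lies between 13.7 and 15.6 CPM with shAMB and DOX and between 39.8 and 43.0 in the 3 DMSO groups.

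Without doxycycline no member was called different between the lines. None passed between sh4 and EV cells with DMSO (0 of 9 by edgeR and by DESeq2, 2 at an unadjusted p under 0.05, with 1.12% of all tested genes changed) or between shAMB and EV cells with DMSO (0 of 9 by both tools, 1 unadjusted, with 1.52% changed). For PCDH19 these baseline differences were 0.01 (95% confidence interval -0.11 to 0.13) and 0.05 (-0.07 to 0.17) on the log2 scale. RUNX1T1 was lower in sh4 than in EV cells with DMSO (-0.29, edgeR adjusted p = 0.0144), a call lost in 4 of 12 alternatives, among them without EV DMSO replicate 1 (adjusted p = 0.106), sh4 DMSO replicate 1 (0.0733) or sh4 DMSO replicate 2 (0.0960).

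Doxycycline with the empty vector changed none of the 9 (0 by edgeR's quasi-likelihood test with Benjamini-Hochberg adjustment and 0 by DESeq2, 3 at an unadjusted p under 0.05), and 0.0939% of all 14905 genes tested were changed. PCDH19 was 41.8, 41.5 and 39.8 CPM in EV libraries with DMSO and 36.4, 38.2 and 37.4 with DOX. The DOX libraries were all below the DMSO libraries, as were those of PCDH7. The log2 fold change of PCDH19 was -0.14 (SE 0.0550, edgeR adjusted p = 0.672) and that of PCDH7 -0.19 (SE 0.0488, adjusted p = 0.484). The others ranged from -0.17 for PCDH18 to 0.35 for PCDH1.

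PCDH19, whose protein works together with N-cadherin in adhesion, fell with both hairpins. In the sh4 line it was 42.2, 40.6 and 41.1 CPM with DMSO and 31.1, 31.6 and 28.3 with DOX. In the shAMB line it was 42.3, 43.0 and 42.1 CPM with DMSO and 15.2, 13.7 and 15.6 with DOX. Neither line's groups overlapped, and the shAMB libraries with DOX were the lowest 3 of the 18. The log2 fold change was -0.44 (SE 0.0549, edgeR adjusted p = 9.04e-06), a level 1.36-fold lower, with sh4 and -1.52 (SE 0.0568, adjusted p = 5.13e-12), 2.87-fold lower, with shAMB. Both were larger falls than in the EV line, by a difference of log2 fold changes of -0.31 (SE 0.0776, adjusted p = 0.00688) for sh4 and -1.38 (SE 0.0787, adjusted p = 1.98e-09) for shAMB. The 2 hairpins also differed from each other, by 1.08 (SE 0.0785, adjusted p = 2.04e-08). On the deposited TPM scale, as log2(TPM + 0.1), the mean differences were -0.17, -0.27 and -1.32 in EV, sh4 and shAMB (exact two-sided permutation p = 0.1 each, the smallest that 3 against 3 libraries allow), so that for sh4 TPM gave a fall less than that of CPM per kilobase, -0.43. Counted from the most lowered gene, PCDH19 was number 169 of 14905 with shAMB, number 2103 with sh4 and number 1744 with EV, where it did not pass the test.

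With sh4, 6 of the 9 members changed, 2 higher and 4 lower, where 40.9% of all genes tested were changed, 22.9% higher and 18% lower. At an absolute log2 fold change of at least 1 it was 1 of the 9, PCDH9, against 5.03% of all genes. The median log2 fold change of the 9 was -0.38, against -0.00 over all genes (-0.00462 before rounding). The delta-1 genes were all lower. PCDH9, a delta-1 member of long introns that spans 927.6 kilobases, was 8.96, 8.69 and 10.7 CPM with DMSO and 4.58, 4.94 and 4.25 with DOX. The groups did not overlap, and the log2 fold change was -1.04 (SE 0.102, edgeR adjusted p = 7.85e-07). PCDH7, which binds protein phosphatase 1 and the phosphatase inhibitor SET, was 25.6, 25.6 and 27.4 CPM with DMSO and 16.7, 16.97 and 16.7 with DOX, again without overlap, and it fell by 0.64 on the log2 scale (SE 0.0491, edgeR adjusted p = 4.64e-08). PCDH1, linked in the airway epithelium to SMAD3 signaling, was 54.5, 45.6 and 37.3 CPM with DMSO and 24.0, 24.8 and 38.8 with DOX. These groups overlapped through DMSO replicate 3 and DOX replicate 3, and its value of -0.65 on the log2 scale (SE 0.197, edgeR adjusted p = 0.0148) lost its call without DMSO replicate 1 (adjusted p = 0.0620), DOX replicate 1 (0.0695) or DOX replicate 2 (0.0719), within a range of 7.37e-07 to 0.0728 over its 12 alternatives.

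The 2 members that were higher with sh4 belong to the delta-2 group. PCDH8, the activity-induced arcadlin that acts on N-cadherin through the kinase TAOK2, was 0.596, 0.590 and 0.588 CPM with DMSO and 1.06, 1.01 and 1.37 with DOX. The level was low in both groups but they did not overlap, and the log2 fold change was 0.95 (SE 0.172, adjusted p = 0.000353). PCDH10, known for promoter silencing in cancers, was 4.998, 4.09 and 4.19 CPM with DMSO and 5.62, 5.63 and 5.08 with DOX, with no overlap and a rise of 0.30 on the log2 scale (SE 0.115) at the threshold itself (edgeR adjusted p = 0.04999). That call was lost in 10 of 12 alternatives, 4 of which left out DMSO replicate 2 (adjusted p = 0.173), DMSO replicate 3 (0.130), DOX replicate 1 (0.126) or DOX replicate 2 (0.135), and over all 12 the adjusted p ranged from 0.0301 to 0.243. PCDH17 (0.04), PCDH18 (-0.05) and PCDH20 (-0.38, adjusted p = 0.114) did not pass the test. With trends of GC content and gene length removed, PCDH18 (-0.20, adjusted p = 0.00110) and PCDH20 (-0.53, adjusted p = 0.0176) passed as lower.

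With shAMB, 8 of the 9 changed, 3 higher and 5 lower, where 66.0% of all genes tested were changed, 37.6% higher and 28.4% lower. PCDH18, PCDH19 and PCDH20 changed by at least 1 on the log2 scale, 3 of the 9 against 17.9% of all genes. The median log2 fold change of the 9 was -0.77, against 0.10 over all genes. The delta-2 genes PCDH10, PCDH18 and PCDH19 were lower. PCDH18, whose tail binds the reelin adaptor DAB1, was 40.4, 41.1 and 38.6 CPM with DMSO and 20.4, 19.7 and 19.5 with DOX, far apart and tight within each group. Its log2 fold change was -1.01 (SE 0.0672, edgeR adjusted p = 3.60e-09), 2.02-fold lower. PCDH10 was 3.57, 4.57 and 3.66 CPM with DMSO and 2.10, 2.38 and 2.19 with DOX, without overlap, and the log2 fold change was -0.82 (SE 0.122, adjusted p = 2.55e-05). PCDH20 was 1.23, 1.35 and 1.28 CPM with DMSO and 0.381, 0.350 and 0.508 with DOX, and its value of -1.65 on the log2 scale (SE 0.210, edgeR adjusted p = 5.06e-06) was the lowest of the 9 in any culture comparison, with the reservation on its level given above. PCDH8, 0.345, 0.416 and 0.508 CPM with DMSO and 0.381, 0.367 and 0.369 with DOX, overlapped and did not pass (-0.18, adjusted p = 0.588), but passed as lower (-0.64, adjusted p = 0.0356) with GC and length trends removed.

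The delta-1 genes did not move together with shAMB. PCDH9 was 10.005, 11.05 and 11.3 CPM with DMSO and 6.70, 6.49 and 5.75 with DOX, lower without overlap (log2 fold change -0.77, SE 0.1003, adjusted p = 6.56e-06). PCDH7 was 28.1, 29.2 and 27.6 CPM with DMSO and 38.8, 38.3 and 39.6 with DOX, higher without overlap (0.46, SE 0.0483, adjusted p = 6.64e-07). PCDH1 was 31.8, 25.9 and 32.7 CPM with DMSO and 40.8, 47.9 and 50.6 with DOX. It was higher as well (0.63, SE 0.197, adjusted p = 0.0112), but the call was lost without DMSO replicate 2 (adjusted p = 0.0554, within 0.000489 to 0.243 over 12 alternatives), and with GC and length trends removed the value was 0.08. PCDH17, a delta-2 gene that joins axons into bundles through the WAVE complex, was 14.2, 14.9 and 14.7 CPM with DMSO and 19.1, 16.4 and 18.3 with DOX. These did not overlap (0.29, SE 0.0722, adjusted p = 0.00223), yet removing the GC and length trends left 0.02 (adjusted p = 0.828), and the transcripts of PCDH1 lie at the 83.4th percentile of tested genes in GC content and those of PCDH17 at the 59.9th.

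**Figure D2:**
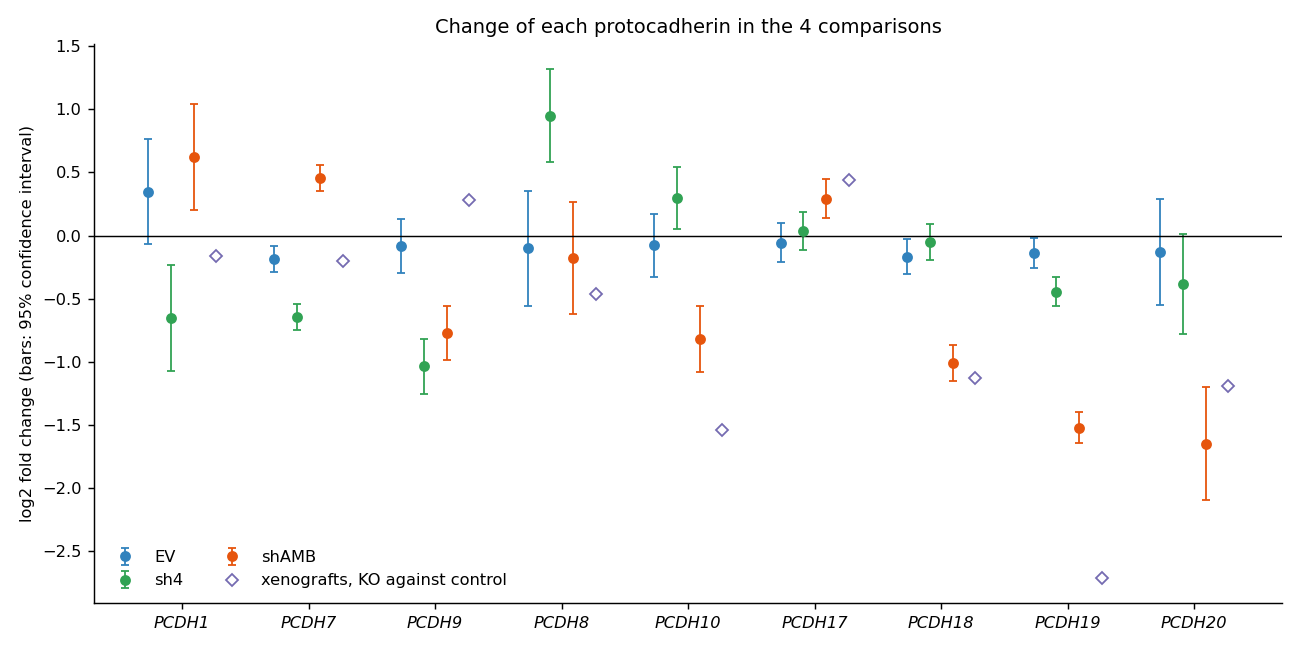
Log2 fold change (vertical axis) of each member with doxycycline against DMSO in the EV, sh4 and shAMB lines (filled circles, bars are 95% confidence intervals of the fit, n = 3 per group) and in xenografts labelled KO against control (open diamonds, n = 4 per group, no interval because PCDH19 was chosen on them). EV values lie between -0.19 and 0.35, and PCDH19 lies at -0.44, -1.52 and -2.71 in the other comparisons.

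Set against the EV line, 5 members differed in their response to doxycycline with sh4 (32.6% of all genes did) and 7 with shAMB (45.5%). Both differences use the same EV libraries. Without sh4 DOX replicate 3, the library of its group least like the others (chi-square per degree of freedom 62.7 and 45.9 against them, and 6.11 between them), the members that differed with sh4 were again 5 in number while the share of all genes was 50.1%. With a difference of at least 1 on the log2 scale there were 1 member for sh4 (PCDH8, 5.62% of all genes) and 2 for shAMB (PCDH19 and PCDH20, 12.7%). For sh4 they were PCDH1 (-1.0, SE 0.278, adjusted p = 0.0123), PCDH7 (-0.46, adjusted p = 0.000131), PCDH9 (-0.95, adjusted p = 0.000118), PCDH19 and PCDH8 (1.05, SE 0.277, adjusted p = 0.0173). The PCDH8 difference was lost with DESeq2 (adjusted p = 0.0709) and without EV DMSO replicate 3 (0.0601), within 0.000538 to 0.0709 over its 18 alternatives. PCDH10 did not differ from EV beyond error here (0.38, adjusted p = 0.0938). For shAMB they were PCDH20 (-1.52, SE 0.289), PCDH19, PCDH18 (-0.85, SE 0.0943), PCDH10 (-0.74, SE 0.170), PCDH9 (-0.69, SE 0.142), PCDH7 (0.64, SE 0.0687) and PCDH17 (0.35, SE 0.102), with edgeR adjusted p of at most 0.0113. The PCDH17 difference was lost in 3 of 18 alternatives, and with GC and length trends removed it was 0.12 (adjusted p = 0.336). The value of PCDH1 was 0.28 with an interval of -0.31 to 0.87, so that its rise with shAMB was not distinguishable from the EV line.

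The 2 hairpins gave different pictures in 8 of the 9 genes, where 60.9% of all genes tested differed between them. The members that changed with both hairpins in the same direction were PCDH9 and PCDH19. PCDH1, PCDH7 and PCDH10 changed with both in opposite directions, PCDH1 and PCDH7 lower with sh4 and higher with shAMB, and PCDH10 the reverse. PCDH8, PCDH17, PCDH18 and PCDH20 changed with 1 hairpin alone. For PCDH7 the difference between the hairpins was -1.10 (SE 0.0688, edgeR adjusted p = 4.02e-09), for PCDH1 -1.28 (SE 0.279, adjusted p = 0.00112), for PCDH10 1.12 (SE 0.168, adjusted p = 4.26e-05) and for PCDH18 0.96 (SE 0.0938, adjusted p = 5.02e-07). PCDH8 (1.13, SE 0.271) and PCDH20 (1.27, SE 0.281) also differed, with adjusted p of 0.00322 and 0.00128. PCDH17 differed by -0.25 (SE 0.102, adjusted p = 0.0409), a call lost in 15 of 18 alternatives, whose adjusted p ranged from 0.0160 to 0.770 and of which 10 left out a single sh4 or shAMB library. PCDH9 had a difference of -0.27 with an interval of -0.57 to 0.04, which passed the test only with GC and length trends removed (-0.50, adjusted p = 0.000810).

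**Figure D3:**
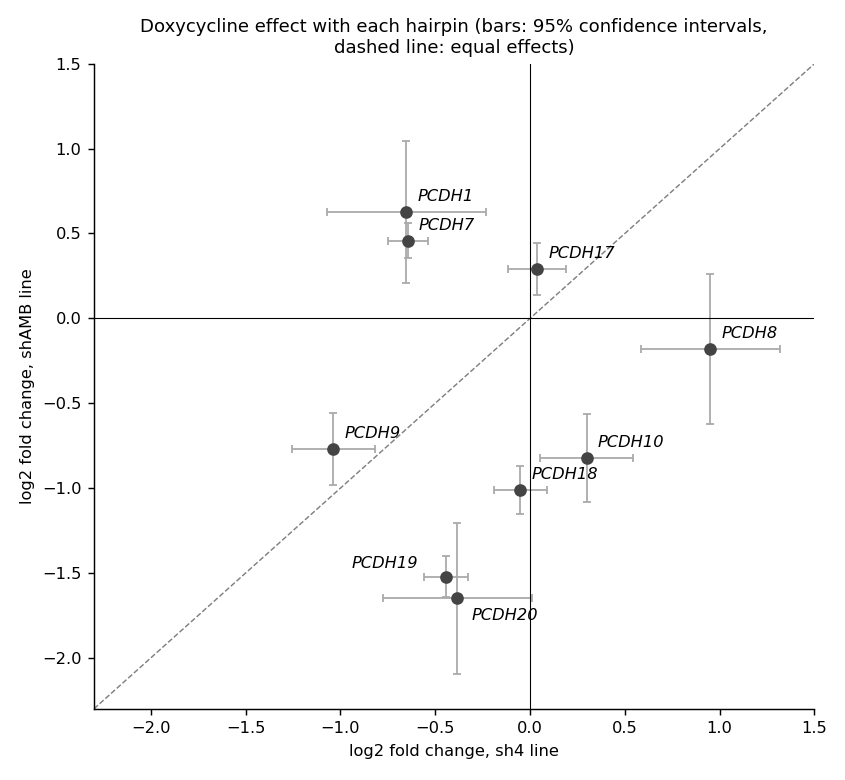
Log2 fold change with doxycycline against DMSO in the sh4 line (horizontal axis) and the shAMB line (vertical axis), 1 point per member with 95% confidence intervals (n = 3 libraries per group) and a dashed line of equal effects. PCDH9 (-1.04 and -0.77) and PCDH17 (0.04 and 0.29) are the members nearest to the dashed line, PCDH1 and PCDH7 lie upper left, and PCDH10 lies lower right.

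Markers of the mesenchymal neuroblastoma state (PRRX1, FOSL1, VIM, FN1, YAP1 and SNAI2) did not all differ in 1 direction. Their summed level, mostly FN1, was 112 to 115 CPM with DMSO and 166 to 173 with DOX in the sh4 line, 96.2 to 107 and 63.6 to 72.2 in the shAMB line, and 105 to 111 and 106 to 112 in the EV line. VIM went against the sum with sh4, at 25.2 to 25.7 CPM with DMSO and 19.8 to 20.1 with DOX, and SNAI2 with shAMB, at 1.92 to 2.51 and 3.48 to 3.92. The summed sympathetic markers were 4599 to 5482 CPM with DMSO and 5439 to 6945 with DOX in sh4, which overlapped, and 4314 to 4612 and 8484 to 9350 in shAMB, which did not. MYCN made up most of the latter difference, at 2085 to 2170 and 5944 to 6561 CPM. PHOX2A, ISL1, TH and CHGB were also higher with DOX there, without overlap. HAND2 was lower with DOX in shAMB, at 334 to 368 and 232 to 242, and GATA3, DBH and CHGA overlapped. With sh4, CHGA (1437 to 1818 and 992 to 1307 CPM), GATA3 and CHGB were lower with DOX, without overlap. MYCN (2035 to 2323 and 3202 to 4090 CPM), HAND2 and ISL1 were higher without overlap, and PHOX2A, TH and DBH overlapped. Of the endothelial list, 3 to 5 of 8 genes were under 0.1 CPM in every library of a culture group, and of the macrophage list 5 or 6 of 7. The part of either cell state in the protocadherin values was not tested.

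In the xenografts PCDH19 was 62.3, 71.9, 54.1 and 64.2 CPM in controls and 13.3, 7.86, 8.88 and 8.59 CPM in tumors labelled knock-out. The highest of the latter was far under the lowest control. The log2 fold change was -2.71, number 8 of 15960 counted from the most lowered gene. These are the values it was chosen on. By the same fit 5 of the 9 members were past the threshold, 1 higher and 4 lower, where 41.1% of all genes tested were, 21.2% higher and 19.9% lower, and nothing is read from that count.

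The other members of the delta-2 group and PCDH20 had the following values there. PCDH10 was 6.85, 5.58, 5.61 and 5.79 CPM in controls and 2.67, 1.62, 1.56 and 2.36 in those labelled knock-out (log2 fold change -1.54). PCDH18 was 35.7, 31.2, 32.4 and 29.8 CPM against 11.3, 18.6, 16.7 and 12.4 (-1.13). PCDH20 was 3.97, 3.21, 3.10 and 3.46 CPM against 1.32, 1.79, 1.31 and 1.58 (-1.19). All 3 were lower in each tumor labelled knock-out than in any control. PCDH17 was 18.4, 19.6, 17.9 and 19.2 CPM against 23.3, 22.9, 26.2 and 29.2 (0.44), higher in each. PCDH8 at 0.518 to 0.806 against 0.352 to 0.670 CPM overlapped (-0.46). The share of all genes whose tumor groups lay fully apart was not counted, so nothing is read from such separation. Of all genes tested, 41.1% were past the threshold in the xenografts.

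The delta-1 genes overlapped between the tumor groups. PCDH1 was 38.9, 59.3, 60.8 and 57.6 CPM against 64.8, 44.7, 51.0 and 32.8 (log2 fold change -0.16), and the spread within each group was wider than the difference. PCDH7 was 41.8 to 52.9 against 34.5 to 51.0 CPM (-0.20), and PCDH9 was 9.69 to 12.6 against 11.4 to 16.8 CPM (0.28). PCDH9 fell with both hairpins in culture, but its tumor groups overlapped. Side by side, the log2 fold changes of the 9 members with shAMB in culture and in the xenografts were -1.52 and -2.71 for PCDH19, -0.82 and -1.54 for PCDH10, -1.01 and -1.13 for PCDH18, -1.65 and -1.19 for PCDH20, 0.29 and 0.44 for PCDH17, 0.46 and -0.20 for PCDH7, -0.77 and 0.28 for PCDH9, 0.63 and -0.16 for PCDH1, and -0.18 and -0.46 for PCDH8. PCDH1, PCDH7 and PCDH9 had opposite signs in the 2 settings.

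Levels of markers of other cell types are given for the tumor groups, without a test. The summed fibroblast markers overlapped, at 57.8 to 94.8 CPM in controls and 85.7 to 129 in those labelled knock-out. Most of that sum was PDGFRB (42.4 to 67.7 and 65.9 to 104 CPM), which was also at 29.8 to 65.7 CPM in the cultured cells, and COL1A1, COL3A1 and LUM overlapped, with COL1A2 under 0.1 CPM in every control. Schwann cell markers were 6.06 to 9.20 and 3.79 to 4.34 CPM, with S100B under 0.1 CPM in every control, and macrophage markers 1.11 to 1.63 and 1.81 to 2.79, with C1QA and C1QB under 0.1 CPM in every tumor. Endothelial markers overlapped at 8.98 to 15.1 and 11.03 to 16.4 CPM, with EMCN under 0.1 CPM in all. Most of that sum was VWF (7.75 to 13.7 and 9.00 to 15.1 CPM), which was also at 0.533 to 7.18 CPM in the cultured cells. KDR was lower without overlap in tumors labelled knock-out (0.534 to 0.790 and 0.0577 to 0.209 CPM), and the other genes of the list overlapped. Mesenchymal state markers were 53.9 to 62.2 and 30.8 to 35.7 CPM. How mouse reads were treated is not given in the sources used here, and the part of these cells in the protocadherin values was not tested.

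The make-up of the family was described by shares. The 9 genes summed to 28.8 ± 1.52 CPM per kilobase (SD, n = 3) with DMSO and 29.7 ± 1.56 with DOX in EV cells, to 32.2 ± 1.62 and 24.4 ± 1.80 in sh4 cells, to 28.0 ± 0.514 and 26.9 ± 1.19 in shAMB cells, and to 39.4 ± 1.92 and 28.7 ± 2.10 (SD, n = 4) in control and knock-out xenografts. The share of PCDH19 in this sum was 15.7% ± 0.469 and 5.71% ± 0.441 in shAMB cells with DMSO and DOX, and 16.6% ± 1.55 and 3.46% ± 0.629 in the tumors. In EV cells it was 14.8% ± 1.15 and 13.0% ± 0.711, and PCDH1 took 34.1% ± 6.33 and 42.1% ± 2.98. In sh4 cells the PCDH19 share was 13.3% ± 0.471 and 12.9% ± 1.65, although its level fell, because the sum was lower as well. PCDH18 took 24.2% ± 1.19 and 12.5% ± 0.841 with shAMB but 21.8% ± 2.84 and 27.8% ± 2.71 with sh4. PCDH7 took 15.2% ± 0.702 and 21.7% ± 0.822 with shAMB. These shares were not tested, and PCDH1, which varied by replicate, moves all of them.

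**Figure D4:**
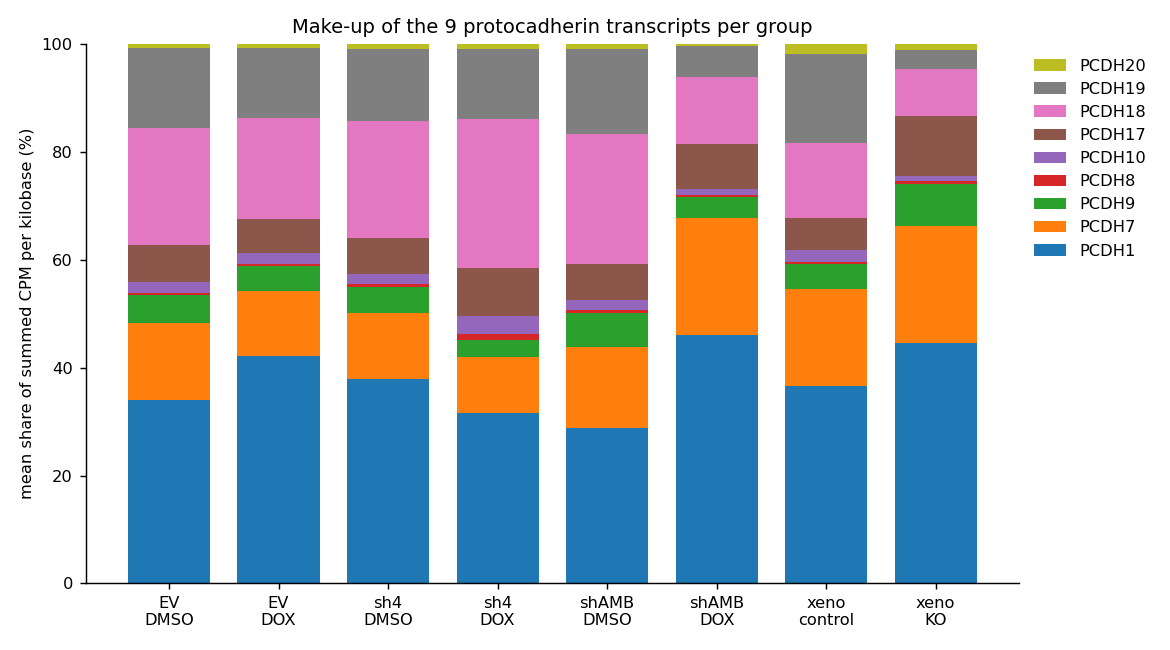
Mean share (vertical axis, percent) of each member in the summed CPM per kilobase of the 9 genes, per group (n = 3 libraries in culture, 4 in xenografts). PCDH19 and PCDH18 take 15.7% and 24.2% in shAMB cells with DMSO and 5.71% and 12.5% with DOX.

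Other genes of the pathway were counted from hand-written lists, to be read against all genes tested, of which 22.9% were higher and 18% lower with sh4 (median log2 fold change -0.00462), 37.6% and 28.4% with shAMB (0.0960) and 21.2% and 19.9% in the xenografts (0.0195). Among other large protocadherin-type genes (16 listed, 13 tested in culture), 4 were higher and 0 lower with sh4 and 10 higher and 1 lower with shAMB, with list medians of 0.21 and 0.86. In the xenografts 7 were higher and 3 lower of 14 (median 0.70). CDHR1, a photoreceptor cadherin, rose with sh4 (log2 fold change 0.51, adjusted p = 8.38e-05) and shAMB (1.47, adjusted p = 3.69e-10), and DCHS2, a ligand of the Dachsous family, rose by 0.70 and 0.86 (adjusted p = 3.93e-05 and 2.01e-06). FAT4, a receptor for Dachsous, rose by 0.42 (adjusted p = 0.00265) and 0.28 (adjusted p = 0.0190), the latter with a value of -0.00 (-0.000363) once GC and length trends were removed and a call lost in 8 of 12 alternatives, among them without shAMB DMSO replicate 1 (adjusted p = 0.0740), DOX replicate 1 (0.0699) or DOX replicate 3 (0.0719), within 0.00789 to 0.996. Clustered protocadherins give neurons a surface code. Only symbols with a digit or C after PCDHA, PCDHB or PCDHG were listed, which left out any PCDHGA and PCDHGB genes. Of the 37 listed (35 tested), 12 were higher and 1 lower with sh4 (median 0.26). With shAMB 2 were higher and 12 lower (median -0.23), and in the xenografts 4 higher and 8 lower (median -0.08). Genes of the alpha and gamma clusters share constant exons and those of the beta cluster are near copies, so the split of reads among them is uncertain.

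Of the classical and atypical cadherins (22 listed, 15 tested), 4 were higher and 2 lower with sh4 and 6 higher and 4 lower with shAMB, with medians of -0.06 and 0.16 (all genes -0.00462 and 0.0960), and 1 was lower with EV. That gene was the type II cadherin CDH6 (log2 fold change -0.93, adjusted p = 0.0139). It was lower also with sh4 (-1.10, adjusted p = 1.06e-05) and shAMB (-1.36, adjusted p = 7.05e-07), so it was called lower with doxycycline in all 3 lines. The EV call was lost in 4 of 12 alternatives, among them without EV DMSO replicate 1 (adjusted p = 0.0884), EV DOX replicate 1 (0.127) or EV DOX replicate 3 (0.0964), within 0.000835 to 0.400. CDH10 rose with sh4 (0.29, adjusted p = 0.0262) and fell with shAMB (-1.01, adjusted p = 4.07e-07). The rise with sh4 was lost in 5 of 12 alternatives, among them without sh4 DMSO replicate 1 (adjusted p = 0.174), DMSO replicate 2 (0.0856) or DOX replicate 1 (0.133), within 0.00519 to 0.174. CDH11 rose by 0.63 (adjusted p = 3.82e-09) with sh4 and by 0.16 (adjusted p = 0.00198) with shAMB, the latter turning to -0.07 with GC and length trends removed and lost also with RLE factors (0.09), with DESeq2 (0.08) and with only the groups compared (0.08). Catenins, which tie classical cadherins to actin (7 listed, 6 tested), were 0 higher and 2 lower with sh4 (median -0.07) and 3 higher and 2 lower with shAMB (median 0.14), shares again to be read against the 22.9% and 18% of all genes with sh4 and 37.6% and 28.4% with shAMB. CTNNB1, beta-catenin, fell by 0.92 (adjusted p = 6.40e-11) with sh4 and by 0.23 (adjusted p = 6.43e-05) with shAMB, while CTNNA2, the neuronal alpha-catenin, fell by 0.17 with sh4 and rose by 0.26 with shAMB (adjusted p = 0.00189 and 1.39e-05).

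The WAVE complex, to which delta-2 tails bind (11 listed, 9 tested), had 3 higher and 5 lower with sh4, 2 higher and 5 lower with shAMB and 0 higher and 4 lower in the xenografts, with medians of -0.15, -0.13 and -0.17, where all genes were 22.9% higher and 18% lower with sh4, 37.6% and 28.4% with shAMB and 21.2% and 19.9% in the xenografts, with medians of -0.00462, 0.0960 and 0.0195. Its subunits CYFIP2 and BRK1 fell with both hairpins (CYFIP2 by 0.31 and 0.43, BRK1 by 0.28 and 0.57, adjusted p of at most 0.000871), and WASF3 rose by 0.59 and 0.28 (adjusted p = 0.000392 and 0.0302). The WASF3 rise with shAMB was lost in 8 of 12 alternatives, among them without DMSO replicate 1 (adjusted p = 0.0654), DMSO replicate 3 (0.137), DOX replicate 1 (0.0996) or DOX replicate 2 (0.105), within 0.00412 to 0.205. CYFIP1, the other CYFIP subunit, rose by 0.18 and 0.26 (adjusted p = 0.0242 and 0.00162), and its rise with sh4 was lost in 5 of 12 alternatives, among them without DMSO replicate 2 (adjusted p = 0.0728), DMSO replicate 3 (0.0898) or DOX replicate 3 (0.0832), within 0.00510 to 0.102. The intracellular partners of single members (10 listed, 9 tested) had 1 higher and 4 lower with sh4 and 1 higher and 3 lower with shAMB, with medians of -0.24 and -0.02, and 0 higher and 2 lower in the xenografts (median -0.16). PPP1CC, a catalytic subunit of the phosphatase that delta-1 tails bind, fell by 0.67 and 0.68 (adjusted p = 4.51e-06 and 1.51e-06). NONO, a nuclear protein that binds PCDH19, fell by 0.24 and 0.92 (adjusted p = 0.000229 and 4.38e-11).

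The genes whose pattern was nearest to that of PCDH19 were named by the root mean square difference in log2 fold change over the EV, sh4, shAMB and xenograft comparisons, among 12489 genes with at least 1 CPM on average in both tables. They were PIR, an iron-binding nuclear protein (difference 0.34), CPS1, which starts the urea cycle in mitochondria (0.35), the sphingosine-1-phosphate receptor S1PR1 (0.40), CCDC167 (0.40) and the mitochondrial citrate carrier SLC25A1 (0.41). CPS1 had log2 fold changes of -0.02, -0.94, -1.90 and -2.40 in these 4, and PIR -0.11, -0.41, -1.75 and -2.07. S1PR1 had 0.11, 0.03, -1.08 and -2.31, and so was not lower with sh4. CCDC167 had 0.25, -0.57, -1.68 and -2.04, and SLC25A1 0.40, -0.47, -1.65 and -2.12. With sh4 the CCDC167 call was lost in 4 of 12 alternatives, and SLC25A1 passed only in 6 of 12 alternatives. Among the other members PCDH20 (0.76), PCDH10 (0.78) and PCDH18 (0.85) were nearest and PCDH17 (1.83) was farthest.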

How the data were processed

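Members and gene lists were chosen with earlier results of these data known. Libraries were prepared with a stranded total RNA kit per the labels, which also name polyA RNA. The submitters' processing notes name hg38, STAR, SAMtools and RSEM, and for these human libraries the versions, annotation and strand setting are not given in the sources used here (the study states versions for its mouse ganglia libraries only). The authors deposited RSEM expected counts (estimated counts, 91.8% whole in culture and 91.0% in xenografts), TPM and gene lengths, for 26485 genes. Expected counts were rounded and tested in edgeR 4.0.16 (R 4.3.3), after filterByExpr (14905 and 15960 genes; all 9 members passed in both tables) and TMM scaling, by a two-sided quasi-likelihood F test with Benjamini-Hochberg adjustment over all genes, and an adjusted p under 0.05 was called changed. The 18 culture libraries entered 1 fit and the 8 xenografts another. Levels set across the tables were scaled separately. DESeq2 1.42.0 was an alternative, with other scaling, no filter, only the groups compared, a replicate block, GC and length trends removed, a log2 fold change of at least 1, and each library left out. The calculation was tested on simulated data. TPM was compared for PCDH19 by an exact permutation test on log2(TPM + 0.1). Counts of any pair of replicates differed by more than sampling noise (lowest chi-square per degree of freedom 1.80), so each library counted once. Named genes were the 9 members, RUNX1T1, up to 4 genes per list changed with both hairpins (at least 1 CPM, largest smaller fold change) and the 5 genes most like PCDH19. Clustered protocadherins were counted only, without PCDHGA and PCDHGB genes. A marker of the sympathetic list is not reported here.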

Additional observations from a re-analysis of the deposited data

Results flagged for a closer look

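Among 20 sets of 4 xenograft libraries tested (9 members and RUNX1T1, by group), 2 held a library whose gap to the next, as a share of the range, was above Dixon's critical value of 0.829, where chance gives about 1 in 20. They were the low PCDH1 value of 38.9 CPM (gap 0.856) and the high PCDH10 value of 6.85 CPM (gap 0.836), both in replicate 1 of the control xenografts.

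The other results here are differences between lines in the doxycycline effect, on the log2 scale, with edgeR adjusted p under 0.05. Against EV, sh4 differed in PCDH1 (-1.0), PCDH7 (-0.46), PCDH8 (1.05), PCDH9 (-0.95) and PCDH19 (-0.31). Against EV, shAMB differed in PCDH7 (0.64), PCDH9 (-0.69), PCDH10 (-0.74), PCDH17 (0.35), PCDH18 (-0.85), PCDH19 (-1.38) and PCDH20 (-1.52). RUNX1T1 differed by 0.21 (adjusted p = 0.0353) between shAMB and EV, which was lost in 14 of 18 alternatives. Between sh4 and shAMB the differences were -1.28 for PCDH1, -1.10 for PCDH7, 1.13 for PCDH8, 1.12 for PCDH10, -0.25 for PCDH17, 0.96 for PCDH18, 1.08 for PCDH19 and 1.27 for PCDH20.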

How the results depend on the processing

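No called value of a member changed sign under any alternative run. Of the alternative values of members in single comparisons, 647 of those that left out 1 library counted as unchanged and 19 lost the call. Of the others, 454 counted as unchanged, 18 lost and 5 gained a call. In culture, unchanged meant the same direction and call. In the xenografts it meant a log2 fold change that stayed close to the main value, whatever its call. Calls gained or lost in the xenografts are therefore not in these numbers. A sign change where neither value passed, of which there were 27 (RUNX1T1 included), was counted as no change. A log2 fold change of at least 1 left 1 member with sh4 (5.03% of all genes), 3 with shAMB (17.9%), 1 for sh4 against EV (5.62%) and 2 for shAMB against EV (12.7%). With GC and length trends removed, 1 member (PCDH18, 0.28) differed between sh4 and EV cells with DMSO (5.24% of all genes), 7 members were past the threshold in the xenografts (52.9% of all genes), and FAT4 (-0.000363) and CDH11 (-0.0735) turned with shAMB. The cause was not tested. When each library was left out in turn, the members changed numbered 4 to 6 with sh4 (32.3% to 53.4% of all genes). With shAMB they numbered 7 to 8 (58.4% to 63.8%). For sh4 against EV they were 4 to 5 (24.9% to 50.1%) and for shAMB against EV 7 (40.4% to 44.8%). They were 7 to 8 for sh4 against shAMB (53.5% to 66.8%) and 5 to 6 in the xenografts (30.8% to 43.9%). There were 0 with EV (0.0464% to 0.0927%) and between the DMSO groups (0.497% to 1.78% for sh4 and 0.828% to 1.25% for shAMB). Over all genes, the calls with sh4 numbered 6091 in the main fit, 3727 with only the groups compared and 8263 with GC and length trends removed. Those for sh4 against EV numbered 4856 in the main fit and 7557 without sh4 DOX replicate 3. Over all alternatives the calls numbered 6 to 58 with EV, 23 to 781 between sh4 and EV cells with DMSO and 85 to 857 between shAMB and EV cells with DMSO.

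Samples with the same replicate number did not deviate together (correlations from -0.603 to 0.374), so the numbers were not taken to pair them. With the replicate number as a block, the members changed were 0, 5 and 8 with EV, sh4 and shAMB (0.101%, 40.1% and 65.5% of all genes), 5, 7 and 8 for the differences between lines (31.8%, 44.4% and 60.4%), and 5 in the xenografts (30.9%). The block ended the calls of PCDH10 with sh4 (adjusted p = 0.0542) and of RUNX1T1 between shAMB and EV, and no other of a member or of RUNX1T1. The low counts of PCDH8 and PCDH20 limit what can be said of small changes.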
